A study of Mus musculus with 24 samples.

Results

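Transcripts of 10 genes of the transforming growth factor beta (TGF-beta) pathway were followed in mouse brain tissue after experimental traumatic brain injury (TBI). The genes were taken by symbol from the expression table, which lists 36333 genes. They include the ligands Tgfb1, Tgfb2 and Tgfb3, the receptors Tgfbr1 and Tgfbr2, the signal transducers Smad3 and Smad7, and the target Tgfbi. Ltbp1 and Ltbp2 belong to the family of latent TGF-beta binding proteins, although LTBP2 does not bind latent TGF-beta. Each of the 10 symbols had 1 row, and all passed the filter on low values.

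TGF-beta ligands are secreted in a latent complex, which latent TGF-beta binding proteins such as LTBP1 anchor in the extracellular matrix. Once released, a ligand binds the receptor TGFBR2, which recruits and phosphorylates TGFBR1, and this receptor pair then activates SMAD2 and SMAD3, while SMAD7 is induced by the pathway and inhibits it. In the brain, TGF-beta signaling is known for keeping microglia in their homeostatic state and for its part in glial and fibrotic scarring.

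RNA sequencing was performed on 24 libraries from 24 male C57BL6N mice aged 12 to 16 weeks, with 1 library per mouse, at 5 days post injury (dpi). TBI was set by controlled cortical impact (CCI), and the mice received vehicle, PLX3397, Anakinra or PLX3397+Anakinra, with 5 mice in each group. PLX3397, an inhibitor of the colony stimulating factor receptor CSF1R on which microglia depend, was given in chow at 290 mg/kg from 90 min after CCI. Anakinra, a blocker of the interleukin-1 receptor IL1R1, was injected subcutaneously at 100 mg/kg at 5 min, 24 h, 48 h and 72 h after CCI, and PLX3397+Anakinra mice received both regimens. The 4 sham mice had anaesthesia and a skin incision without craniotomy and received vehicle. Strain and age are given as in the sample labels, and the methods name the substrain C57BL/6JRj and a narrower age range. The labels of all 5 vehicle mice, and of no others, carry a letter B (J01B, for example) whose meaning is not given, so that anything it marks cannot be told apart from the vehicle group in comparisons with vehicle. Values are TPM, transcript abundances that are scaled by gene length and sum to 1000000 in each library, so that levels of different genes can be compared within a library.

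The tissue is labelled cortex, but the methods describe an upper brain quadrant with striatum, hippocampus and thalamus. The 5 striatal markers summed to between 694 and 1211 TPM in the 24 libraries. The 10 microglial markers, among them P2ry12, Tmem119 and Csf1r, summed to between 440 and 465 TPM in sham and between 2218 and 2998 TPM in vehicle mice. With PLX3397 they summed to between 998 and 1511 TPM, with Anakinra to between 2455 and 2740 TPM and with PLX3397+Anakinra to between 878 and 1118 TPM. None of the 10 markers was at 0 in any library. All 10 fell against vehicle with PLX3397 and with PLX3397+Anakinra, where 6.66% and 9.60% of all genes fell. Against sham, 7 of the 10 were called higher and 2 lower in each of these 2 groups. Of all genes, 22.7% and 22.5% were with PLX3397, and 20.7% and 18.1% with PLX3397+Anakinra. In bulk tissue, fewer cells of a type and less RNA per cell cannot be told apart. Transcripts of 3 red blood cell genes were also lower in the mice given PLX3397 (391 to 737 TPM) and PLX3397+Anakinra (498 to 647 TPM) than in vehicle mice (1043 to 3028 TPM). Summed TPM of 7 markers of border macrophages and monocytes ranged from 7.35 to 10.6 in sham, where Ly6c2 was at 0 in a library, and from 58.1 to 119 in vehicle mice. It ranged from 26.9 to 57.9 with PLX3397, from 56.0 to 83.8 with Anakinra and from 10.4 to 17.7 with PLX3397+Anakinra. In each PLX3397 group 5 of the 7 fell against vehicle, beside the same 6.66% and 9.60% of all genes. Compared with sham, 4 of these 7 were called higher and 3 lower with PLX3397, and 3 higher and 3 lower with PLX3397+Anakinra. The part of these marker groups in the results was not tested.

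Upstream sequences are shown for the ligand and both receptors that moved together in the drug comparisons, and for Tgfb2 as a ligand that did not. Each sequence holds the 250 bases before a start site given by RefSeq on GRCm38.p6, written 5′ to 3′ on the strand of the gene. Capitals mark matches, on either strand, to GGGCGG (the GC box), CAGAC (the core of SMAD binding sites), TATAAA (the TATA box) or GAGGAA (the core bound by the myeloid factor PU.1). The Tgfb1 sequence lies at chr7:25686752-25687001 (+), that of Tgfbr1 at chr4:47352972-47353221 (+), that of Tgfbr2 at chr9:116175364-116175613 (-) and that of Tgfb2 at chr1:186705990-186706239 (-).
Tgfb1: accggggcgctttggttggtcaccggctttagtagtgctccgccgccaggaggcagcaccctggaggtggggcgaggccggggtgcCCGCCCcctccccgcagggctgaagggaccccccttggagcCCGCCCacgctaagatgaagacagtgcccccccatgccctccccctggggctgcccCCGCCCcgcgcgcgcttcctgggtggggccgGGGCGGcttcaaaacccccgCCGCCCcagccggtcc
Tgfbr1: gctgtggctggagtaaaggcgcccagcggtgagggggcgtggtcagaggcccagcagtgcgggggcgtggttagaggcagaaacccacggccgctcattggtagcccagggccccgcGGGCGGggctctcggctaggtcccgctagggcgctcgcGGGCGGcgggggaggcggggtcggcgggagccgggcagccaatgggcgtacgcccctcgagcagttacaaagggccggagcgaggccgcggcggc
Tgfbr2: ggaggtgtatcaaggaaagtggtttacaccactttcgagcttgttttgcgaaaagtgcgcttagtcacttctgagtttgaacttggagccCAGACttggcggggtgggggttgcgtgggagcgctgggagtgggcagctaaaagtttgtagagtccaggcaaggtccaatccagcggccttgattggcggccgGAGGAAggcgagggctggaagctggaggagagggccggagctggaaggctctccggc
Tgfb2: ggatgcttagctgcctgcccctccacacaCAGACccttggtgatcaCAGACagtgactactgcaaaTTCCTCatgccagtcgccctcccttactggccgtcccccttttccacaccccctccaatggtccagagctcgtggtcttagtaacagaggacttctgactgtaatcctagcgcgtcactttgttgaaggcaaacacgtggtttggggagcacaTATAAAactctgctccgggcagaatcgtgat
The Tgfb1 sequence held 5 GC boxes, at -164, -123, -67, -36 and -16 from the start site, no TATA box, and 75.2% G and C. The Tgfbr1 sequence held 2 GC boxes, at -133 and -95, and 74.8% G and C. RefSeq gives Tgfbr1 another start, not shown, whose 250 bases (chr4:47385966-47386215) held no GC box, 1 CAGAC at -203 and 1 GAGGAA at -95. The Tgfbr2 sequence held no GC box, 1 CAGAC at -160 and 1 GAGGAA at -57. Tgfb2 was the one of these genes with a TATA box, at -31, together with 2 CAGAC at -221 and -204 and 1 GAGGAA at -184. Over 32851 promoters of 27025 genes in the same window, 32.7% held GGGCGG, 42.2% CAGAC, 12.4% TATAAA and 23.3% GAGGAA. The matches describe letters only and say nothing of whether a factor binds there. RefSeq promoters were used for 8 of the 10 genes.

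In sham brain, with the values taken as scaled by gene length, the most abundant of the 10 transcripts was Smad3 at 50.8 TPM ± 1.499 (SD, n = 4). Smad7 followed at 19.4 TPM ± 1.78. Tgfbr1 (15.4 TPM ± 0.784) and Tgfbr2 (15.2 TPM ± 0.775) overlapped, and below them came Tgfb3, Tgfb2, Tgfb1, Tgfbi, Ltbp1 and Ltbp2 without overlap between neighbors in this order. In vehicle mice the order was Tgfbr2, Smad3, Tgfb1, Tgfbr1, Tgfbi and Smad7, with overlap between each pair of neighbors, then Tgfb3 and Tgfb2, which overlapped each other, and at the bottom Ltbp1 and Ltbp2. Tgfb1 thus stood in seventh place in sham and in the third after TBI, while Smad3 was the first in sham and the second after TBI. With PLX3397+Anakinra, Smad3 was again the first (44.9 TPM ± 0.894, n = 5) and did not overlap Tgfbr2 (27.8 TPM ± 3.55, n = 5) in second place.

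**Figure D1:**
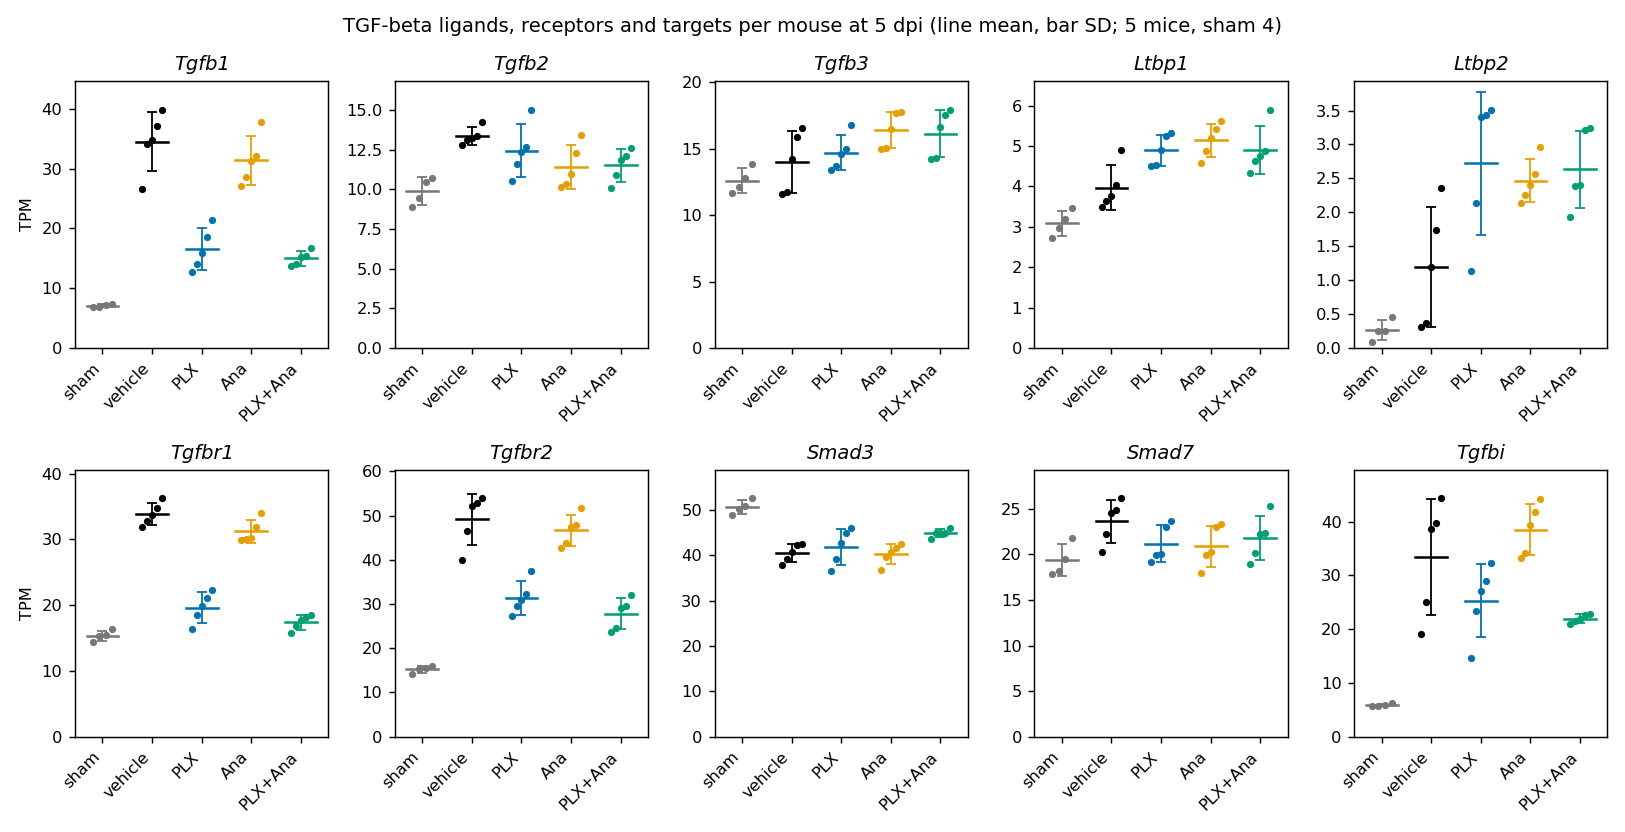
Level of each of the 10 genes in TPM (y axis, linear, from 0) in sham, vehicle, PLX3397 (PLX), Anakinra (Ana) and PLX3397+Anakinra (PLX+Ana) mice; points are mice, lines are means and bars are SD (n = 5, sham n = 4). Tgfb1, Tgfbr1 and Tgfbr2 were high with vehicle and Anakinra and lower in both PLX3397 groups, whereas Ltbp2 was highest in the 3 drug groups.

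Differences between groups were tested with limma on log2(TPM + 1) over 17267 genes averaging 0.5 TPM or more, and a gene was called at a Benjamini-Hochberg adjusted p below 0.05 over all of them. Fold changes on this scale understate the change of low genes such as Ltbp2. Over the 5 groups, limma's F-test called 9 of the 10 genes, all but Smad7 (adjusted p = 0.115), against 51.9% of all genes tested. TBI with vehicle raised 8 of the 10 genes above sham, where 26.6% of all genes rose, and lowered Smad3, where 27.7% of all genes fell. Tgfb3 was not called. The median log2 fold change was 0.55 over the 10 genes and -0.01 over all genes.

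The 3 ligands bind the same receptors, and Tgfb1 is the one known for its expression by immune cells. It stood at 6.79, 6.92, 7.20 and 7.29 TPM in the sham mice. In vehicle mice it was at 34.8, 26.7, 39.9, 37.1 and 34.1 TPM, 4.90 times the sham mean. No vehicle mouse overlapped sham, and the log2 fold change was 2.13 ± 0.118 (SE, adjusted p = 1.36e-13, limma). Under PLX3397, Tgfb1 was at 14.1, 21.5, 18.6, 12.7 and 16.0 TPM, all below the lowest vehicle mouse, and it fell by 1.03 on the log2 scale (SE 0.111, adjusted p = 3.63e-07). With Anakinra it was at 37.8, 27.2, 31.3, 32.1 and 28.7 TPM, within the range of the vehicle mice, and the difference of -0.13 was not called (95% interval -0.36 to 0.10, adjusted p = 0.658). PLX3397+Anakinra mice had 16.7, 15.3, 15.2, 13.7 and 14.04 TPM, again with no overlap with vehicle. Against vehicle, Tgfb1 fell by 1.14 on the log2 scale (SE 0.111, adjusted p = 2.70e-08). It nevertheless stayed 2.12 times above sham with the combination and 2.35 times above sham with PLX3397 (adjusted p = 3.46e-07 and 4.25e-08). Of the rise of 27.5 TPM over sham seen with vehicle, 34.6% remained under PLX3397, 88.6% under Anakinra and 28.9% under PLX3397+Anakinra. Tgfb1 is also among the genes that the study itself selected from these samples as shared by both PLX3397 groups, so its direction there is no independent evidence.

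Tgfb2, the ligand known from astrocytes and neurons, had a narrower range. It stood between 8.89 and 10.7 TPM in sham and between 12.8 and 14.3 TPM in vehicle mice, which did not overlap (log2 fold change 0.40 ± 0.0872, adjusted p = 0.000385). None of the drugs changed it against vehicle by the test, with differences of -0.10 for PLX3397, -0.22 for Anakinra and -0.20 for PLX3397+Anakinra (adjusted p = 0.502, 0.268 and 0.0932). All 5 PLX3397+Anakinra mice, at 10.1 to 12.6 TPM, were below the lowest vehicle mouse. Against sham, Tgfb2 was not called with Anakinra (0.19, adjusted p = 0.0751) or the combination (0.20, adjusted p = 0.0742), but it was without Anakinra J06 or J14 (adjusted p = 0.0426 and 0.0494) and without PLX3397+Anakinra J04 (0.24, adjusted p = 0.0389). Tgfb3 was at 12.6 TPM ± 0.956 in sham and 14 TPM ± 2.30 in vehicle mice, and these overlapped (0.13, adjusted p = 0.267). It was called above sham with Anakinra (16.4 TPM ± 1.35, log2 fold change 0.35, adjusted p = 0.00334) and with PLX3397+Anakinra (16.1 TPM ± 1.77, 0.33, adjusted p = 0.00863), but in no comparison with vehicle. In the annotation, Tgfb3 overlaps Ttll5 on the opposite strand (group means between 18.2 and 22.1 TPM), and Tgfb2 overlaps the antisense gene Gm29491. Whether reads were counted by strand is not given in the sources used here, so both values may hold reads of the overlapping genes.

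With the values taken as scaled by gene length, the makeup of the ligand transcripts could be compared. Tgfb1 made up 23.9% ± 1.53 of the summed Tgfb1, Tgfb2 and Tgfb3 TPM in sham (SD, n = 4) and 55.6% ± 2.48 in vehicle mice (n = 5), without overlap. It made up 37.6% ± 2.92 with PLX3397, 53.0% ± 1.94 with Anakinra and 35.2% ± 2.23 with PLX3397+Anakinra. The share rose by 31.7 percentage points with TBI (exact two-sided permutation test, p = 0.0159, adjusted over 6 comparisons p = 0.0238). Against vehicle it differed by -18.02 points with PLX3397 and by -20.4 points with PLX3397+Anakinra (exact p = 0.00794 in both, adjusted p = 0.0159), which is the smallest p that 5 against 5 mice allow. Anakinra (exact p = 0.111) and the combination against PLX3397 (exact p = 0.190) did not pass. Without vehicle mouse J17B the Anakinra difference was -3.65 points and passed (adjusted exact p = 0.0381). Leaving out any 1 of the sham mice ended the call of TBI, at 31.3 to 32.3 points and an adjusted exact p of 0.0536, since 3 against 5 mice allow no exact p under 0.0357.

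Tgfb1 was also set against the 10 microglial markers, as log2(Tgfb1 TPM + 1) minus the mean log2(TPM + 1) of the markers. This log2 ratio was -1.93 ± 0.0321 in sham, -1.67 ± 0.117 in vehicle, -1.40 ± 0.275 in PLX3397, -1.81 ± 0.147 in Anakinra and -1.41 ± 0.164 in PLX3397+Anakinra mice. Tgfb1 fell less than the markers with PLX3397+Anakinra, with a ratio higher by 0.27 than with vehicle (exact permutation p = 0.0238, adjusted over 6 comparisons p = 0.0476) and by 0.41 than with Anakinra (exact p = 0.00794, adjusted p = 0.0476). With PLX3397 alone the difference from vehicle was of like size, 0.27, but did not pass (exact p = 0.0714, adjusted p = 0.107), and it passed without PLX3397 mouse J19 (0.37, adjusted exact p = 0.0317). The ratio rose by 0.25 with TBI (exact p = 0.0159, adjusted p = 0.0476). These adjusted p-values lie just under the threshold. Leaving out any of the 9 vehicle or sham mice ended the call of TBI against sham, with differences of 0.22 to 0.29 and adjusted exact p between 0.0635 and 0.0857. The call of the combination against vehicle ended in 13 of the 24 leave-one-out runs, with differences of 0.20 to 0.32 over all 24 and a highest adjusted exact p of 0.0952.

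**Figure D2:**
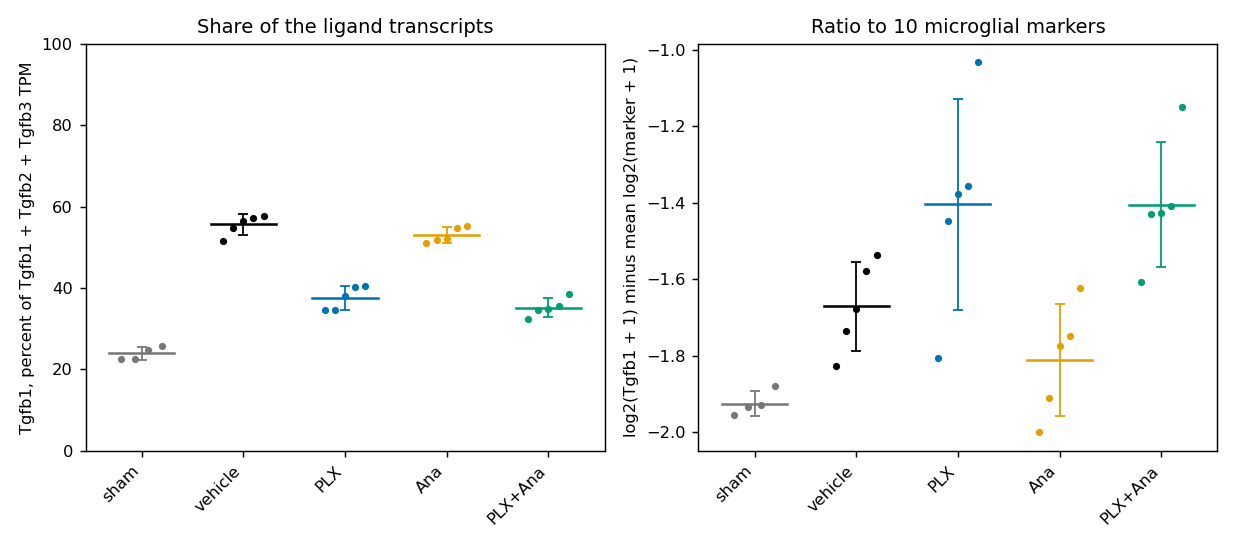
Left, Tgfb1 as a percent of the summed TPM of the 3 ligands (y axis, 0 to 100); right, log2 ratio of Tgfb1 to the mean of 10 microglial markers; points are mice, lines means, bars SD (n = 5, sham n = 4). The share averaged 55.6% with vehicle and 35.2% with PLX3397+Anakinra, and the ratio was lowest in sham, at -1.93 on average.

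LTBP1 is the best known of the proteins that carry latent TGF-beta into the matrix, while LTBP2 is a fibrillin-associated matrix protein that does not bind latent TGF-beta. Ltbp1 stood between 2.73 and 3.46 TPM in sham and between 3.48 and 4.91 TPM in vehicle mice (log2 fold change 0.28 ± 0.0883, adjusted p = 0.0102). It averaged 4.90 TPM ± 0.387 with PLX3397, 5.14 TPM ± 0.412 with Anakinra and 4.90 TPM ± 0.592 with PLX3397+Anakinra. All 3 drug groups overlapped vehicle. The combination was called higher than vehicle (0.25 ± 0.0833, adjusted p = 0.0384), but PLX3397 (0.25, adjusted p = 0.0552) and Anakinra (0.31, adjusted p = 0.114) were not. The call for the combination ended, with adjusted p between 0.0593 and 0.117, without vehicle J17B, J19B or J20B or without PLX3397+Anakinra J03, J04 or J09. Without vehicle mouse J18B, PLX3397 (0.32, adjusted p = 0.0163) and Anakinra (0.37, adjusted p = 0.0421) were called too, and without PLX3397+Anakinra J03, PLX3397 was called (0.25, adjusted p = 0.0418).

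Ltbp2 was the lowest of the 10 genes in sham, at 0.246, 0.0904, 0.450 and 0.249 TPM. In vehicle mice it was at 1.19, 0.306, 2.35, 1.74 and 0.361 TPM, so that 2 of the 5 vehicle mice, J17B and J20B, lay within the range of sham. It was higher than sham by the test (log2 fold change 0.71 ± 0.232, adjusted p = 0.0124). Under PLX3397 it was at 1.13, 3.43, 3.40, 2.14 and 3.51 TPM, and under PLX3397+Anakinra at 3.21, 2.39, 3.24, 2.40 and 1.93 TPM. Both groups overlapped vehicle, and both were called higher, by 0.81 ± 0.219 in each (adjusted p = 0.0179 and 0.0109). Anakinra mice had 2.97, 2.14, 2.26, 2.40 and 2.57 TPM, and the difference of 0.76 was not called (adjusted p = 0.137, unadjusted p = 0.00203). The PLX3397 call ended without vehicle J20B (0.66, adjusted p = 0.0660), without PLX3397 J12 (0.73, adjusted p = 0.0530) or J20 (0.72, adjusted p = 0.0520), and with the compared groups alone in the model (adjusted p = 0.126). Over the 24 libraries, Igf2 had the highest mean of 6 fibroblast and meningeal markers (72.1 TPM), above Lum (27.3 TPM), Pdgfra (26.3 TPM) and Ogn (13.6 TPM). Summed TPM of the 6 ranged from 90.3 to 108.5 in sham and from 113 to 164 in vehicle mice, with the lowest vehicle sums in J17B (113) and J20B (116). It ranged from 149 to 212 with PLX3397, from 146 to 193 with Anakinra and from 141 to 241 with PLX3397+Anakinra. None of these markers was at 0 in any library. With PLX3397+Anakinra against vehicle, 3 of the 6 rose and 1 fell, where 7.88% of all genes rose and 9.60% fell. Their part in the result was not tested. The antisense gene D030025P21Rik, which overlaps Ltbp2, averaged at most 0.0359 TPM in any group.

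Between groups, the signaling receptors moved with Tgfb1. Tgfbr2, the receptor that binds the ligand, stood at 16.0, 14.1, 15.5 and 15.3 TPM in sham. In vehicle mice it was at 52.3, 40.0, 53.9, 53.0 and 46.5 TPM, 3.23 times the sham mean and without overlap (log2 fold change 1.62 ± 0.0938, adjusted p = 3.14e-13). PLX3397 mice had 27.2, 37.4, 31.0, 29.4 and 32.2 TPM, and PLX3397+Anakinra mice had 32.0, 23.6, 29.6, 29.2 and 24.6 TPM. Each of these 10 values was below the lowest vehicle mouse. Tgfbr2 fell by 0.63 on the log2 scale with PLX3397 (adjusted p = 1.83e-05) and by 0.80 with PLX3397+Anakinra (adjusted p = 2.14e-07, SE 0.0885 in both). Anakinra mice, at 42.7 to 51.7 TPM, lay within the range of vehicle (-0.07, 95% interval -0.25 to 0.12, adjusted p = 0.797).

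Tgfbr1, the kinase that phosphorylates the SMADs, stood at 14.4, 16.3, 15.4 and 15.3 TPM in sham. In vehicle mice it was at 33.7, 34.7, 36.2, 32.7 and 31.8 TPM, 2.20 times the sham mean (log2 fold change 1.09 ± 0.0688, adjusted p = 1.61e-12). PLX3397 mice had 16.4, 22.3, 18.6, 19.8 and 21.1 TPM, and PLX3397+Anakinra mice had 18.2, 18.5, 15.7, 17.8 and 16.8 TPM. No mouse of either group overlapped vehicle, and Tgfbr1 fell by 0.76 with PLX3397 (SE 0.0649, adjusted p = 1.38e-08) and by 0.92 with PLX3397+Anakinra (adjusted p = 2.29e-10). Of its rise of 18.5 TPM over sham, 23.1% remained with PLX3397, 85.9% with Anakinra and 11.0% with PLX3397+Anakinra, against 47.9%, 92.8% and 37.1% of the rise of Tgfbr2. With the combination, Tgfbr1 overlapped sham and was not called above it (0.17 ± 0.0688, 95% interval 0.03 to 0.31, adjusted p = 0.0553). A call was gained when PLX3397 J01 or J02, PLX3397+Anakinra J09 or sham J08 was left out, with adjusted p between 0.0254 and 0.0460.

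SMAD3 carries the receptor signal to the nucleus. Its transcript was the only one of the 10 that TBI lowered. It stood at 49.0 to 52.6 TPM in sham and at 38.0 to 42.5 TPM in vehicle mice, without overlap (log2 fold change -0.32 ± 0.0554, adjusted p = 3.12e-05). With PLX3397 it averaged 41.9 TPM ± 3.97, with Anakinra 40.3 TPM ± 2.22 and with PLX3397+Anakinra 44.9 TPM ± 0.894. The 5 combination mice, at 43.5 to 46.0 TPM, were all above the highest vehicle mouse and the highest Anakinra mouse, yet the differences of 0.14 and 0.15 were just short of a call (adjusted p = 0.0591 and 0.0531). Against vehicle it was called without vehicle J01B, PLX3397 J01 or J02, or Anakinra J21 (adjusted p between 0.0328 and 0.0490). Against Anakinra it was called without PLX3397 J01, J02 or J12, or Anakinra J06 (adjusted p between 0.0286 and 0.0486). Smad3 was lower than sham in all 4 TBI groups, with log2 fold changes of -0.33 to -0.17, and without sham mouse J15 the call for the combination ended (-0.16, adjusted p = 0.0501). Transcripts of 6 neuronal markers summed to 5440 to 5750 TPM in sham, 3216 to 3975 TPM in vehicle, 3633 to 4411 TPM in PLX3397, 3426 to 3812 TPM in Anakinra and 4018 to 4296 TPM in PLX3397+Anakinra mice, with none at 0. All 6 fell in each TBI group against sham. Of all genes, 27.7% fell with vehicle, 22.5% with PLX3397, 29.2% with Anakinra and 18.1% with PLX3397+Anakinra. With the combination against vehicle, 4 of the 6 rose, where 7.88% of all genes rose. Their part in the result was not tested. Smad7, the inhibitory SMAD, was at 19.4 TPM ± 1.78 in sham and 23.6 TPM ± 2.35 in vehicle mice, which overlapped (0.27 ± 0.0897, adjusted p = 0.0123). Its means lay between 20.9 and 21.8 TPM in the 3 drug groups, and no drug comparison called it (adjusted p = 0.299, 0.410 and 0.400 against vehicle).

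TGFBI is a secreted matrix protein named for its induction by TGF-beta. Tgfbi had the largest vehicle response of the 10 genes by fold, from 5.78, 5.98, 5.80 and 6.25 TPM in sham to 38.7, 19.1, 39.8, 44.4 and 25.1 TPM in vehicle mice. The groups did not overlap (log2 fold change 2.24 ± 0.190, adjusted p = 3.50e-10), but the vehicle values spread widely, with J17B and J20B lowest. PLX3397 mice had 14.6, 27.1, 28.9, 23.4 and 32.3 TPM, and the difference of -0.37 was not called (95% interval -0.74 to -0.001, adjusted p = 0.218). PLX3397+Anakinra mice had 21.4, 22.9, 21.9, 22.6 and 20.9 TPM, inside the range of vehicle. The combination was called lower than vehicle by 0.52 on the log2 scale (SE 0.179, adjusted p = 0.0459), and the call ended in 15 of the 24 leave-one-out fits. These were the fits without vehicle J01B, J18B or J19B, each of the 5 PLX3397+Anakinra mice, PLX3397 J19, Anakinra J14 or J22, and each sham mouse, with adjusted p from 0.0512 to 0.154. Without vehicle J17B, in contrast, PLX3397 was also called (-0.55, adjusted p = 0.0224). Against Anakinra mice (44.3, 33.3, 41.7, 34.2 and 39.3 TPM) the combination mice did not overlap, and Tgfbi fell by 0.78 (adjusted p = 0.00399). It stayed above sham in every treated group, by 1.72 to 2.50 on the log2 scale. Summed fibroblast and meningeal markers were at 113 to 164 TPM with vehicle, 141 to 241 with the combination and 146 to 193 with Anakinra. Those of border macrophages and monocytes were at 58.1 to 119, 10.4 to 17.7 and 56.0 to 83.8 TPM in this order. J17B and J20B had the lowest vehicle sums of both, and J17B also those of microglial, endothelial and mural markers. The part of any marker group in the Tgfbi result was not tested.

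**Figure D3:**
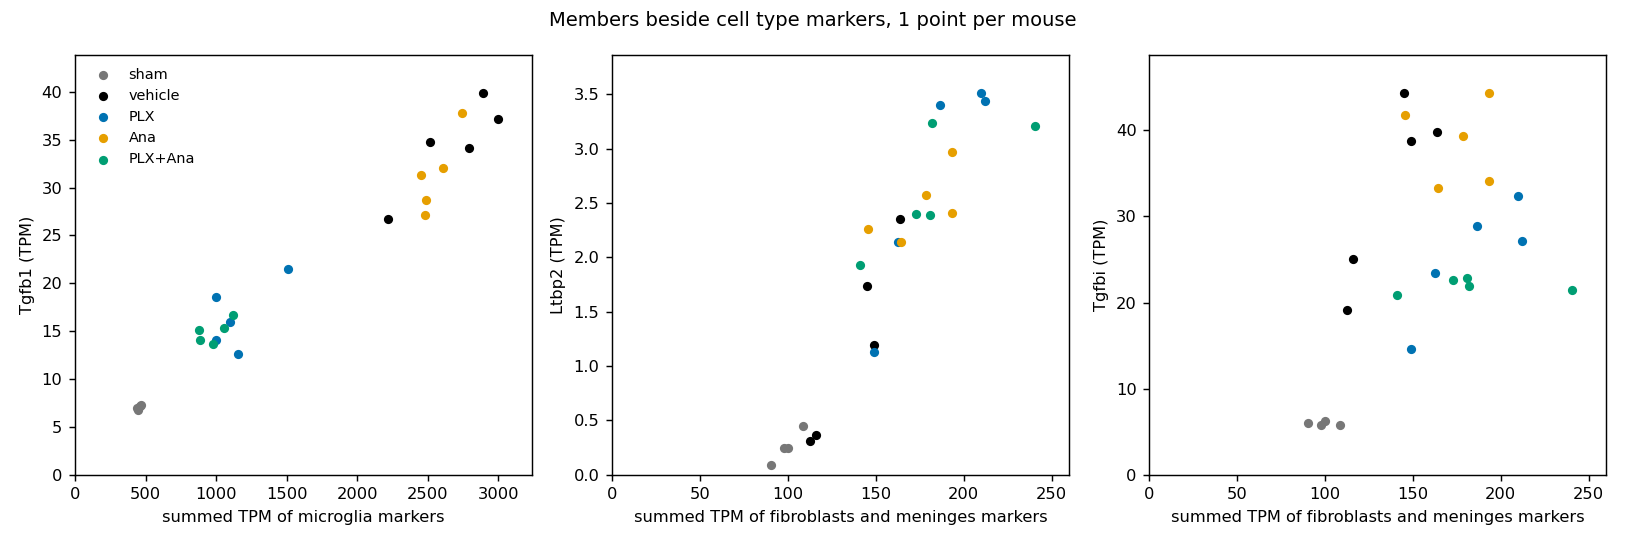
Level of Tgfb1, Ltbp2 and Tgfbi in TPM (y axes) against the summed TPM of 10 microglial (left) or 6 fibroblast and meningeal markers (middle and right) in the same mouse (x axes); 1 point per mouse, colored by group. Vehicle mice J17B and J20B have the lowest fibroblast and meningeal sums of their group, 113 and 116 TPM, and its lowest Ltbp2 (0.306 and 0.361 TPM) and Tgfbi (19.1 and 25.1 TPM). These mice also have its lowest sums of border macrophage and monocyte markers, 58.1 and 75.1 TPM, which are not plotted. J17B has the lowest microglial, endothelial and mural sums of the vehicle group as well (2218, 191 and 213 TPM) and its highest neuronal sum (3975 TPM), whereas J20B lies inside the range of the group for these.

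Counted over the comparisons, PLX3397 lowered 3 of the 10 genes against vehicle (Tgfb1, Tgfbr1 and Tgfbr2), where 6.66% of all genes fell, and raised 1 (Ltbp2), where 3.23% rose. PLX3397+Anakinra lowered 4 (the same 3 and Tgfbi), where 9.60% of all genes fell, and raised Ltbp1 and Ltbp2, where 7.88% rose. Anakinra changed 0 of the 10 genes by limma, against 0.116% of all genes called in either direction. At an unadjusted p under 0.05 there were 4 of the 10 (Tgfb2, Tgfb3, Ltbp1 and Ltbp2) and 12.4% of all genes. Medians over the 10 genes were -0.13, -0.16 and -0.04 for PLX3397, the combination and Anakinra, and 0.01, 0.01 and -0.02 over all genes. These 3 comparisons share the vehicle mice. The calls of Tgfb1, Tgfbr1 and Tgfbr2 against vehicle in both PLX3397 groups held in each alternative that ranked genes by adjusted p, and without each mouse in turn. Other calls were less stable. With the combination, that of Tgfbi ended in 15 and that of Ltbp1 in 6 of the 24 leave-one-out fits, and with PLX3397 that of Ltbp2 ended in 3.

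**Figure D4:**
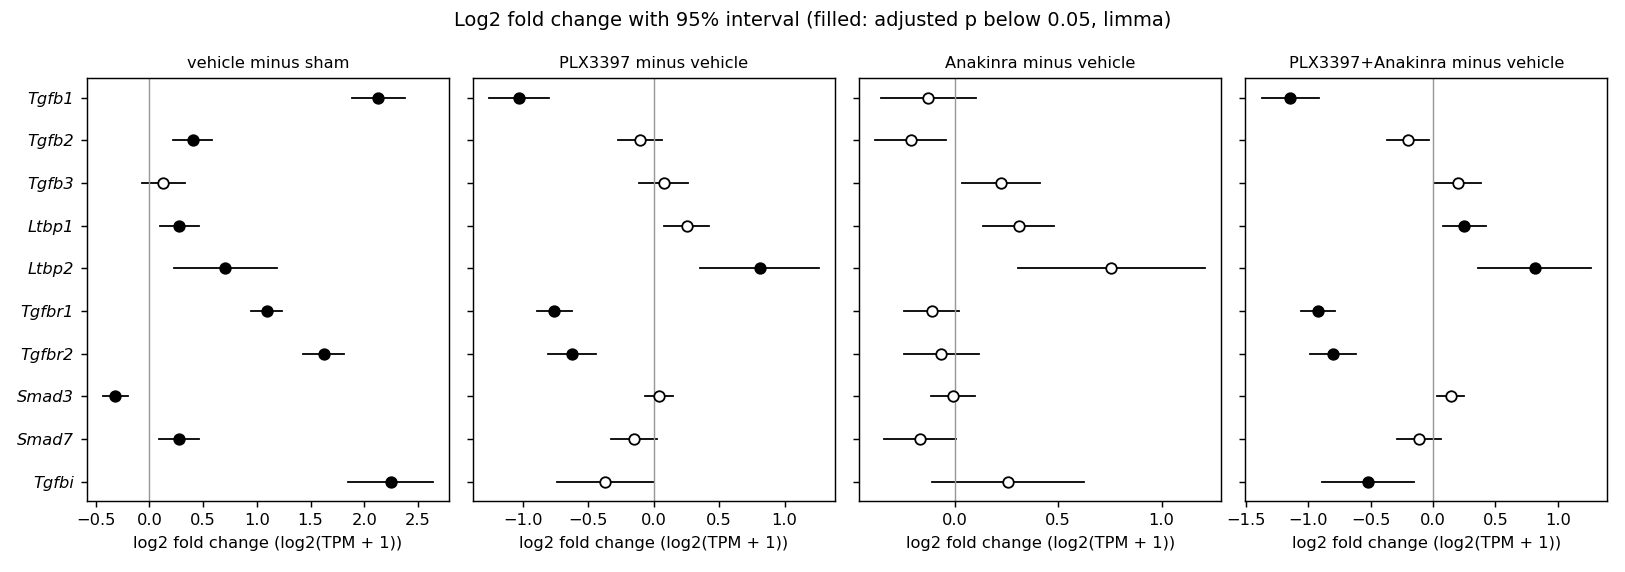
Log2 fold change on the log2(TPM + 1) scale (x axes, each panel with its own range) of the 10 genes for vehicle minus sham and for each drug group minus vehicle; lines are 95% intervals, filled points have an adjusted p below 0.05 (limma). TBI raised 8 genes and lowered Smad3, PLX3397+Anakinra lowered 4 and raised 2, and Anakinra changed 0. The calls of Tgfbi and Ltbp1 with PLX3397+Anakinra ended in some of the leave-one-out fits.

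Against PLX3397 alone, the combination changed 0 of the 10 genes (limma), where 0.151% of all genes were called, and 1 of the 10 and 6.71% of all genes had an unadjusted p under 0.05. That gene was Tgfbr1, at -0.16 (95% interval -0.29 to -0.03, adjusted p = 0.590). The interval of the difference for Tgfb1 ran from -0.35 to 0.11, and for Tgfbr2 from -0.36 to 0.01. Against Anakinra alone, the combination lowered 4 genes (Tgfb1, Tgfbr1, Tgfbr2 and Tgfbi), where 8.10% of all genes fell, and raised 0, where 4.67% rose. The interaction of the drugs called 0 of the 10 genes and 0% of all genes, with 2 of the 10 (Ltbp1 at -0.31 and Ltbp2 at -0.75) and 8.08% of all genes at an unadjusted p under 0.05.

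Set against sham, PLX3397 raised 7 of the 10 genes and lowered 1 (22.7% and 22.5% of all genes), Anakinra raised 7 and lowered 1 (25.1% and 29.2%), and PLX3397+Anakinra raised 6 and lowered 1 (20.7% and 18.1%). The gene lowered was Smad3 each time. Ltbp1 and Ltbp2 stood further above sham in the 3 drug groups than in the vehicle group, with Ltbp2 at 10.5, 9.53 and 10.2 times the sham mean with PLX3397, Anakinra and PLX3397+Anakinra and at 4.59 times with vehicle. The criteria of the study were also applied, with limma's unadjusted p below 0.05 in place of the p of the study's own tests. They further ask for a ratio of mean TPM above 2 and a difference above 4 TPM. By these criteria, 4 of the 10 genes were called for TBI with vehicle (Tgfb1, Tgfbr1, Tgfbr2 and Tgfbi), against 5.26% of all genes. Tgfb1 alone met them against vehicle with PLX3397 (1.02% of all genes) and with PLX3397+Anakinra (1.65%), and for the combination against Anakinra (1.57%). Against sham they were met by 3 of the 10 with PLX3397 (3.66%), 4 with Anakinra (5.29%) and 2 with PLX3397+Anakinra (2.90%).

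The rest of the pathway was described through 4 lists. Their counts against sham stand beside 26.6% of all genes that rose and 27.7% that fell with TBI, and those against vehicle beside 3.23% and 6.66% with PLX3397 and 7.88% and 9.60% with PLX3397+Anakinra. Of 15 genes of latency and activation, 14 were tested, and Itgb6 was under the filter. TBI raised 11 of them and lowered 1, with a median log2 fold change of 0.72. Thbs1, whose product can release latent TGF-beta, rose from 1.88 TPM ± 0.248 in sham to 32.7 TPM ± 11.7 in vehicle mice (3.45 ± 0.28, adjusted p = 1.42e-10), and the proteoglycan gene Bgn rose from 18.5 TPM ± 2.01 to 90.7 TPM ± 47.4 (2.04 ± 0.31, adjusted p = 3.78e-06). With PLX3397+Anakinra, 4 genes rose against vehicle (Bgn by 1.02, Fbn1 by 0.79, Fmod and Mmp2) and 2 fell. Those that fell were Nrros, which encodes a partner of latent TGF-beta1 on microglia (-0.72, adjusted p = 2.64e-05), and Itgav, an integrin subunit that takes part in releasing it (-0.23, adjusted p = 0.00147). Fmod, Mmp2, Nrros and Itgav were named after their values were seen. PLX3397 raised 3 and lowered 2 of the list, and Anakinra changed 0 (limma, 8 at an unadjusted p under 0.05, as were 12.4% of all genes).

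Of 8 further receptors and co-receptors, TBI raised 2 and lowered 2, shares near those of all genes (26.6% and 27.7%), with the activin receptor Acvr1b (-0.46, adjusted p = 2.43e-07) and the endothelial co-receptor Eng (0.35, adjusted p = 0.00253) moving most. No comparison of a drug group with vehicle called any of the 8 in limma, with 0, 1 and 2 at an unadjusted p under 0.05 for PLX3397, Anakinra and the combination, where 22.8%, 12.4% and 29.7% of all genes were. Of 13 SMADs and regulators, TBI raised 5 and lowered 4, against 26.6% and 27.7% of all genes. The transcriptional co-repressor Tgif1 rose from 0.918 TPM ± 0.238 to 5.58 TPM ± 1.22 (1.77, adjusted p = 2.17e-11). The inhibitory Smad6 rose as well (0.50, adjusted p = 0.000899). Tgif1 fell against vehicle with PLX3397+Anakinra (-0.76, adjusted p = 5.85e-05), to 2.86 TPM ± 0.370, and also with PLX3397 (-0.42, adjusted p = 0.0266), while Smurf1 (0.19) and Zfyve9 (0.18, named after its value was seen) rose with the combination. The common SMAD partner Smad4 and the receptor-activated Smad2 were not called in these comparisons, also named after their values were seen.

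Of 16 genes known to respond to TGF-beta, TBI raised 13 and lowered 0, against 26.6% and 27.7% of all genes, with a median of 1.16. Timp1, an inhibitor of matrix metalloproteinases, rose from 0.564 TPM ± 0.117 to 40.6 TPM ± 18.4 (4.61 ± 0.28, adjusted p = 5.81e-13), and the fibrillar collagen gene Col3a1 from 2.05 TPM ± 0.565 to 103 TPM ± 83.7 (4.29 ± 0.59, adjusted p = 1.17e-06). Against vehicle, PLX3397+Anakinra raised 6 of the 16 and lowered 0 (7.88% and 9.60% of all genes), while PLX3397 raised 5 and lowered 1 (3.23% and 6.66%). Postn, Col1a1, Col1a2, Col3a1 and Lox of this list are among the genes that the study itself selected from these samples as differing from vehicle. The excess of the list over all genes is therefore no independent evidence. Col3a1 stood at 225 TPM ± 56.7 with the combination (1.91, adjusted p = 0.0187) and Col1a1 at 271 TPM ± 66.2, against 122 TPM ± 94.8 with vehicle (1.79, adjusted p = 0.0170). In both PLX3397 groups the ligand Tgfb1 and both receptors were lower than with vehicle while 5 or 6 of the 16 responsive genes were higher. The median of the 16 was 0.42 with PLX3397 and 0.36 with PLX3397+Anakinra. With Anakinra 0 of the 16 were called by limma, although 13 of the 16 and 12.4% of all genes had an unadjusted p under 0.05, and the median was 0.72. Tgfb1 and both receptors were not called with Anakinra. Against Anakinra, the combination raised 0 of the 16 and lowered 1 (4.67% and 8.10% of all genes), with a median of -0.24. By its median, the rise of the list was thus not particular to the PLX3397 groups. The 16 genes also respond to other signals. Of the 6 fibroblast and meningeal markers, 4 rose with TBI, 2 rose and 1 fell with PLX3397 against vehicle, and with Anakinra 0 were called by limma (2 at an unadjusted p under 0.05). Their part in these counts was not tested.

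**Figure D5:**
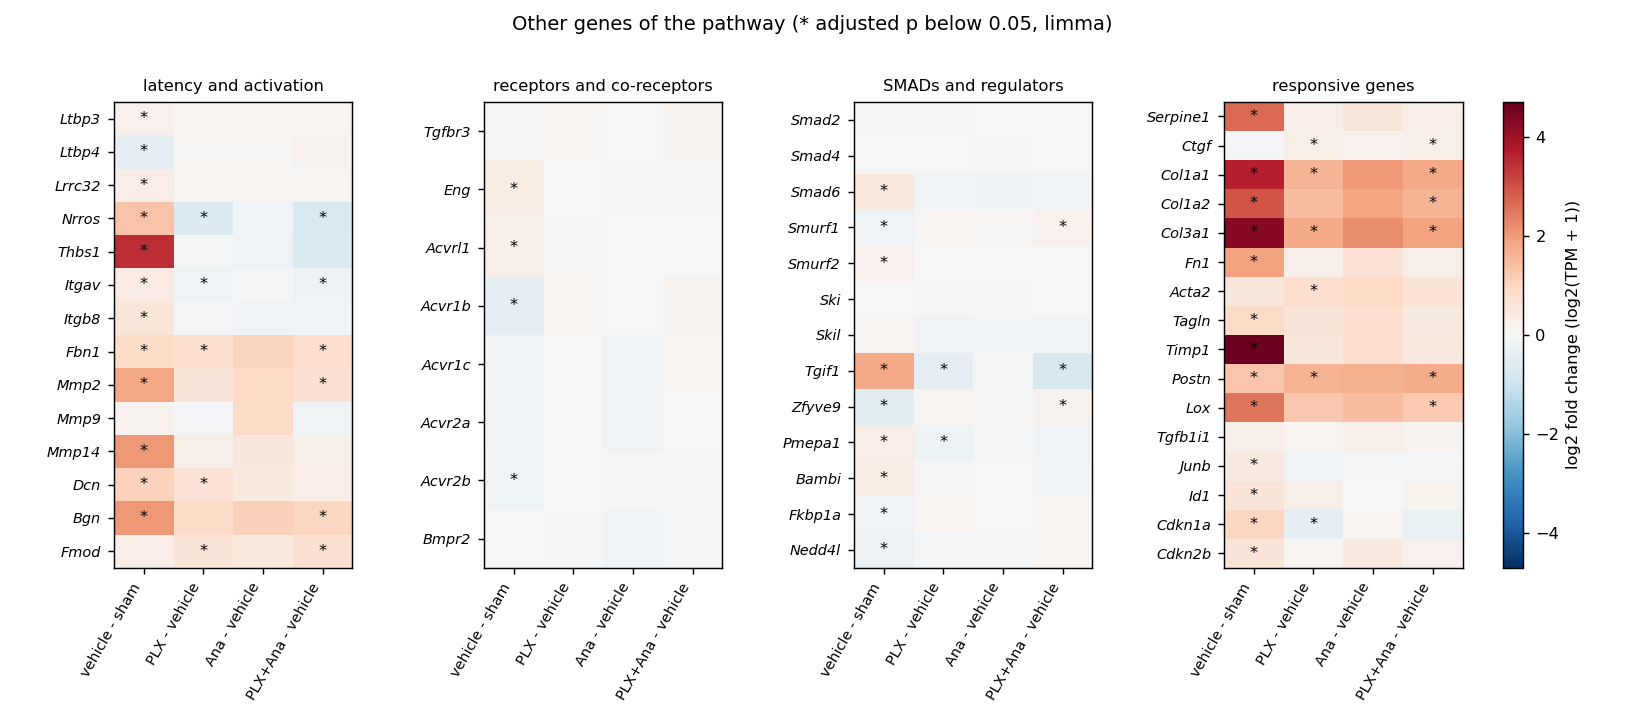
Log2 fold change (color, log2(TPM + 1) scale) of the tested genes of 4 lists of the pathway (rows) for vehicle minus sham and for each drug group minus vehicle (columns); asterisks mark an adjusted p below 0.05 (limma). Of the responsive genes 13 rose with TBI, and of the further receptors none was called with a drug.

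For each of the 10 genes, the 3 most alike among all genes tested were taken by Pearson r of log2(TPM + 1) over the 24 libraries. These values describe these libraries, which share the 5 groups, and the r of the deviations from the group means is given beside them. Tgfb1 was most like Cd37 (0.99, 0.85 within groups), Hexa and Itgb5. Tgfbr1 was most like Tifab (0.98, 0.68 within groups), Vsir and Csf1r, the gene of the receptor that PLX3397 inhibits (0.98, 0.57 within groups). Tgfbr2 was most like Grn (0.99, 0.82 within groups), Ucp2 and Stab1, and Tgfbi was most like Tspo (0.99, 0.85 within groups), Clec4d and Fxyd5.

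Ltbp2 was most like the matrix genes Col12a1 (0.98, 0.92 within groups), Postn and Fstl1. Ltbp1 was most like Col6a2 (0.92, 0.68 within groups), Ctsk and Col6a1, and Tgfb3 was most like Col4a2 (0.88, 0.85 within groups), Eya2 and Col6a2. The ligand Tgfb2 (Gm21975, Itpkb and Tesk2, 0.81 to 0.85), Smad3 (R3hdm4, Atxn7l3 and Cnih3, 0.93 to 0.94) and Smad7 (Dag1, Hipk2 and Peli2, 0.80 to 0.83) had other neighbors. Among the 10 genes themselves, Tgfb1 and Tgfbr2 had an r of 0.98 (0.72 within groups), Tgfb1 and Tgfbr1 0.92 (0.29 within groups), and Ltbp2 and Tgfbi 0.73 (0.86 within groups). Within groups, Tgfb1 had a higher r with Ltbp2 (0.70), Tgfb2 (0.63), Tgfbi (0.62), Tgfb3 (0.59) and Ltbp1 (0.56) than with Tgfbr1. Its r was lower with Smad3 (-0.39) and Smad7 (-0.08).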

How the data were processed

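The authors mapped paired-end reads of polyA RNA to mm10 (GRCm38) in CLC Genomics Workbench 21.0.5 and deposited TPM per gene in 3 tables. The full-precision table was used. A rounded table served as an alternative, and a filtered table, which also holds the p-values and F values of the authors' own tests, was not used. Read counts are not in these tables, so depth is unknown and precision rests on 5 mice per group (sham 4). Groups follow the labels' treatment, with 0 columns of other samples. log2(TPM + 1) of 17267 genes averaging 0.5 TPM or more was fitted in limma 3.58.1 (R 4.3.3) with a mean per group and a variance trend, and tested on simulated data. Benjamini-Hochberg adjustment covered all genes tested. For the Tgfb1 ratio and share, mice were permuted exactly (two-sided, scipy 1.17.1). Loci and overlaps came from GENCODE M21 and promoters from RefSeq, both on GRCm38. Genes named singly were the 10 members, the 2 called genes of each pathway list with the largest fold in vehicle against sham and in PLX3397+Anakinra against vehicle, and the 3 genes most alike to each member, with exceptions marked. Members and lists were chosen with earlier results of these data known. Alternatives changed the pseudocount, filter, scaling, table, variance trend, groups in the model, call rule, replicate block and each mouse.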

Additional observations from a re-analysis of the deposited data

How the results depend on the processing

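By the study's criteria with limma's unadjusted p, in place of adjusted p, 4 of the 10 genes were called for vehicle against sham, 1 each for PLX3397 and PLX3397+Anakinra against vehicle and for the combination against Anakinra, and 3, 4 and 2 for PLX3397, Anakinra and the combination against sham, with the shares of all genes given above. Other alternatives kept these counts within 1.5 times, except Anakinra against vehicle, which ranged from 0 to 1 over the runs without each mouse. The call of Tgfbi for the combination against vehicle ended without a filter, without a variance trend, with the replicate block and with the compared groups alone. That of Ltbp1 ended without a filter, with rescaling and with the compared groups alone. The cause was not tested.

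Differences near 0 changed sign. Rescaling by the median ratio gave 0.0078 for Smad3 (Anakinra against vehicle), -0.013 for Tgfb2 (combination against Anakinra) and -0.0091 for the Tgfb1 interaction. Without each mouse, values ran from -0.033 to 0.021 for Smad3 (Anakinra against vehicle). For the combination against PLX3397 they ran from -0.015 to 0.085 for Smad7, from -0.059 to 0.033 for Ltbp1 and from -0.18 to 0.09 for Ltbp2, and for the ratio of Tgfb1 to microglial markers from -0.10 to 0.092. For the combination against Anakinra they ran from -0.024 to 0.068 for Tgfb2, from -0.062 to 0.016 for Tgfb3 and from -0.0022 to 0.13 for Ltbp2, and for the Tgfb1 interaction from -0.071 to 0.11. The ratio ran from 0.22 to 0.29 for vehicle against sham, from 0.17 to 0.37 for PLX3397 and from 0.20 to 0.32 for the combination against vehicle. The share of Tgfb1 ran from 31.2 to 32.7 points for vehicle against sham and from -3.65 to -2.13 points for Anakinra against vehicle.

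Animal numbers recur between vehicle and PLX3397 groups once the letter B is dropped (J01B and J01). Deviations of such pairs correlated at 0.17, 0.32, -0.13 and -0.07. J01B and J17B were most alike to the mouse of their own number in the other group, whereas J19B and J20B were not. The consensus correlation over recurring numbers was 0.25. These values cannot settle whether mice were paired, and the main model treated them as unpaired. With the replicate block, 5 members were called for PLX3397 against vehicle in place of 4, and 2455 genes in place of 1707. Over all genes, the compared groups alone gave 998 calls for PLX3397 against vehicle, and small counts for Anakinra against vehicle (20) ran from 1 to 66 without each mouse. Unknown depth limits what can be said of Ltbp2 in sham.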
